A study of Saccharomyces cerevisiae with 18 samples.

Results

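Monosome footprints of budding yeast lacking HEL2 were set against those of the wild type, gene by gene and by functional group. The comparison held 2 hel2∆ libraries and 3 wild-type libraries, 5 of the 18 libraries of the series, and covered every gene of the monosome count table. Of the 6085 genes listed, 5225 had enough counts to be tested and 860 fell below the filter on low counts.

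The study asked how sequence context and tRNA modification shape decoding and quality control, and sequenced single-ribosome (monosome) and double-ribosome (disome) footprints of 4 strains. All cells were of the BY4741 background and were grown in YPD, a rich glucose medium, at 30 °C. The hel2∆ strain is MATa with his3Δ1, leu2Δ0 and ura3Δ0, and its HEL2 gene was replaced by LEU2 (hel2Δ::LEU2). The wild type is MATa with his3Δ1, leu2Δ0, ura3Δ0 and met15Δ0, so it carries no functional LEU2. Disome libraries of the same strains, 2 of hel2∆ and 2 of the wild type, were used to ask whether a change was also present in that fraction. A strain lacking NCS2 and ELP6 as well as HEL2 (ncs2Δ::HIS3MX elp6Δ::URA3 hel2Δ::LEU2, 2 monosome libraries) was set against ncs2∆elp6∆ (3 monosome libraries) as a second background for the same deletion. Each genotype was represented by 1 strain, so a change linked to the deletion, one linked to the LEU2 marker and one particular to that isolate cannot be told apart.

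Hel2 is a ubiquitin ligase that binds the interface of collided ribosomes and ubiquitinates small-subunit proteins, which marks the stalled ribosome for the RQC-trigger complex. That complex, which includes the helicase Slh1, splits the leading ribosome, after which the RQC proper clears the nascent chain. A collided ribosome can also activate the kinase Gcn2 through Gcn1, which raises translation of the transcription factor Gcn4, and Hel2 and Gcn2 signalling are known to compete in yeast. A monosome footprint count of a gene reflects its mRNA level and the number of ribosomes on each mRNA together, and the comparison does not separate them.

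The hel2∆ libraries were shallower than the wild-type libraries. They held 2560606 and 3548631 counts, against 12537098, 11702547 and 13710907 in the wild type, so that 3 counts corresponded to 0.845 to 1.17 CPM (counts scaled to a library of common size) in hel2∆ and 0.219 to 0.256 CPM in the wild type. The chi-square per degree of freedom between the hel2∆ libraries was 1.35 over 4962 genes, against 6.26, 16.2 and 22.2 for the wild-type pairs, a measure that grows with depth and so cannot be set against the strains here. The 2 larger wild-type values both involved replicate 3, which stood apart in several groups named below. The 10 genes with the most counts took 14.8% and 15.0% of the hel2∆ counts, against 17.1% to 17.2% of the wild-type counts. The normalization factors of the trimmed mean of M values (TMM) were accordingly 1.113 and 1.103 for hel2∆ and 0.914 to 0.959 for the wild type. Levels below are CPM of the TMM-scaled library size, and log2 changes are hel2∆ minus wild type from the fit.

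The targeted gene checked the labels. HEL2 (YDR266C, chromosome IV, 1000104 to 1002023 in the RefSeq R64 assembly, coding sequence) had 6 and 4 counts in hel2∆, against 880, 910 and 1251 in the wild type (log2 change -5.83, SE 0.243, adjusted p = 1.98e-11). LEU2, which encodes the isopropylmalate dehydrogenase of leucine synthesis and marks the deletion, had 22 and 25 counts in hel2∆ and 1, 1 and 4 in the wild type (log2 change 5.25, adjusted p = 1.17e-06). URA3 and MET17, the gene called MET15 in the genotype, had at most 1 count in either hel2∆ library, and MET17 had 24, 0 and 0 counts in the wild type. The hel2∆ label does not list met15Δ0. NCS2 and ELP6 did not pass the test (log2 changes 0.20 and 0.33).

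Footprint levels changed at many genes, mostly by modest amounts. At an adjusted p under 0.05 (a called gene), 766 genes were higher in hel2∆, which is 14.7% of the genes tested, and 900 were lower, which is 17.2%. At an unadjusted p under 0.05 there were 2207. The median log2 change over all genes tested was 0.03, and 105 called genes had a log2 change beyond 1 in size, 63 upward and 42 downward. Both hel2∆ libraries lay above all 3 wild-type libraries at 1615 genes and below all 3 at 1504. The split between directions depended on the scaling. With library totals in place of TMM-scaled totals the median of all genes was 0.27, 1937 genes were called higher and 337 lower, so that 85.2% of the calls were higher, against 46.0% with TMM. The counts and medians of gene groups below are therefore to be read against these shares and medians of all genes, and a group below that median was low relative to the other genes of the same libraries. Without hel2∆ replicate 1 there were 702 calls and without hel2∆ replicate 2 there were 632, while leaving out wild-type replicate 3 gave 2199.

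**Figure D1:**
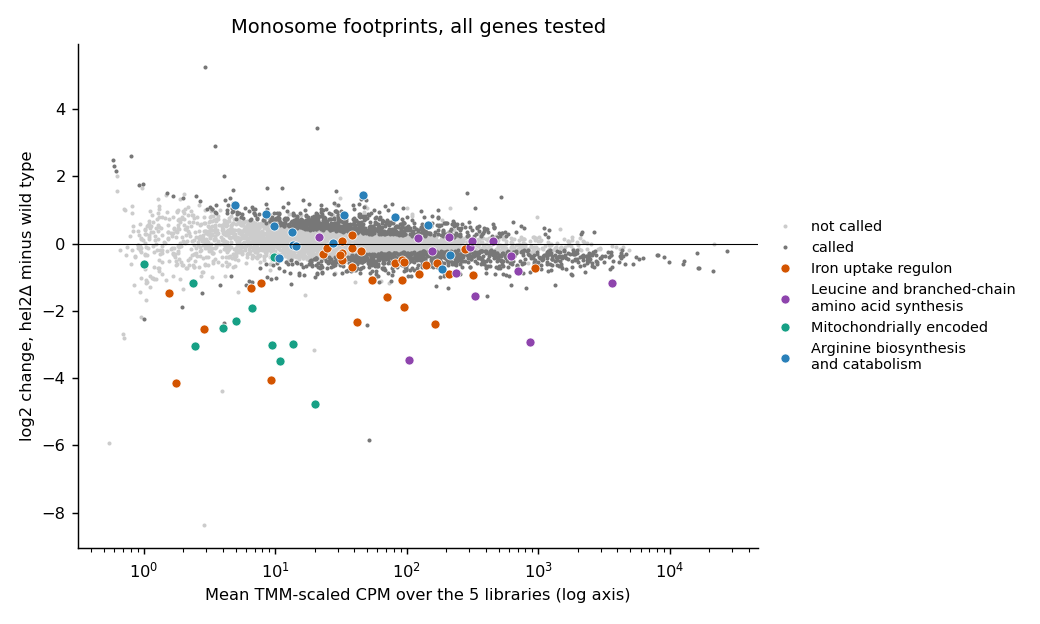
Log2 change in monosome footprints (hel2∆ minus wild type, vertical axis) against mean TMM-scaled CPM over the 5 libraries (horizontal log axis) for the 5225 genes tested, with called genes in dark grey and 4 groups coloured. The iron, mitochondrially encoded and some leucine genes lie well below the cloud, and ARG1 of the arginine group lies above it.

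Of the called genes with the largest rise, 2 belonged to amino acid or purine synthesis, 2 to the respiratory chain and 1 to glycogen synthesis. HXT7, a high-affinity hexose transporter whose sequence is nearly identical to that of HXT6, had 45.3 and 46.3 CPM in hel2∆ and 3.003, 2.06 and 7.30 CPM in the wild type (log2 change 3.43, adjusted p = 0.0134). Uniquely mapped counts of this pair are uncertain, and the call was lost with either hel2∆ library left out (adjusted p = 0.0569 and 0.0719). TPO2, a polyamine exporter of the plasma membrane, rose by 1.67 and RPM2, the protein subunit of mitochondrial RNase P, by 1.56. ADE17, a bifunctional enzyme of the last steps of purine synthesis, had 809.5 and 842 CPM in hel2∆, against 280.2, 344 and 333 CPM in the wild type. IRA2, a GTPase-activating protein that restrains Ras, and GLC3, the glycogen branching enzyme, rose by 1.33 and 1.30, and BPH1 and the uncharacterized frame YNL143C by 1.21 and 1.66, the call of YNL143C being lost with all 10 monosome libraries in the fit (adjusted p = 0.114). Separate libraries were a condition of this ranking, so both hel2∆ libraries lay above the highest wild-type library in each of these genes by selection. The same condition held for the 12 largest falls. ARG1, COX7 and INH1, also among the largest rises, and the 12 largest falls are described with their groups, apart from DIC1 and YMR317W. DIC1, the mitochondrial dicarboxylate carrier, fell to 12.99 and 14.6 CPM in hel2∆, against 79.6, 81.8 and 62.6 CPM in the wild type (log2 change -2.42, SE 0.163, adjusted p = 3.32e-08). YMR317W, an uncharacterized frame, changed by -2.36 with 2 and 6 counts in hel2∆, and its call was lost without hel2∆ replicate 1 (adjusted p = 0.0619).

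Genes of leucine and branched-chain amino acid synthesis fell as a set of individual enzymes, with the rest of the pathway near its wild-type level. Of 14 genes listed and tested, 7 were lower and 1 was higher, with a median log2 change of -0.30. LEU1 (YGL009C, chromosome VII, 476313 to 478652), the isopropylmalate isomerase that acts just before Leu2, had 175 and 174 CPM in hel2∆, against 1384, 1353 and 1265 CPM in the wild type. OAC1 (YKL120W, chromosome XI, 217344 to 218318), a mitochondrial carrier that exports isopropylmalate and carries oxaloacetate, had 15.4 and 14.6 CPM in hel2∆, against 169.5, 175 and 149.9 CPM in the wild type. Both genes were among the largest falls, for which separate libraries were a condition. The log2 changes were -2.94 (SE 0.0840, adjusted p = 1.49e-13) at LEU1 and -3.46 (SE 0.125, adjusted p = 3.73e-12) at OAC1. BAT1, the mitochondrial branched-chain aminotransferase, had 162 and 148 CPM in hel2∆ and 421, 459 and 478 CPM in the wild type (log2 change -1.55, SE 0.0860). ILV5, the acetohydroxyacid reductoisomerase, had 2048 and 2110 CPM in hel2∆ and 4822, 4920 and 4184 CPM in the wild type (log2 change -1.16, SE 0.0800). The dehydratase ILV3, the acetolactate synthase ILV2 and the branched-chain permease BAP2 fell by smaller amounts, with log2 changes of -0.82, -0.38 and -0.89.

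The other members of the pathway were near their wild-type levels. LEU4, the main isopropylmalate synthase, had 288 and 287 CPM in hel2∆ and 305, 326 and 299 CPM in the wild type, with a log2 change of -0.11 that did not pass the test. LEU9, its paralogue, changed by 0.16, LEU3, the zinc-cluster activator of the pathway, by 0.19, ILV6 by 0.07, the cytosolic aminotransferase BAT2 by 0.09 and the permease BAP3 by -0.21, none of which passed. ILV1, the threonine deaminase that feeds isoleucine synthesis, was the one call upward (log2 change 0.20, adjusted p = 0.0423), and it was lost without either hel2∆ library (adjusted p = 0.140 and 0.332), without wild-type replicate 1 (0.0811) and without wild-type replicate 2 (0.102). Outside the list, 3 genes chosen after their values were seen fell alongside. GDH1, the NADP-dependent glutamate dehydrogenase, had 185 and 190.1 CPM in hel2∆ and 573, 582 and 515 CPM in the wild type (log2 change -1.57, SE 0.0830, adjusted p = 8.35e-10). ALD5, a mitochondrial aldehyde dehydrogenase, changed by -1.26, and ISU2, a scaffold for iron-sulfur cluster assembly, by -1.08.

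The leucine-linked genes were also low in the other 2 comparisons of the deletion. In disomes, where 38 of 4531 genes were called (0.839%, with 541 genes at an unadjusted p under 0.05), 5 genes of the list were called, all lower. LEU1 had 295 and 271 disome CPM in hel2∆ and 1677 and 1703 in the wild type, a log2 change of -2.58. The disome changes of OAC1, BAT1, ILV5 and ILV3 were -3.31, -1.79, -0.87 and -0.69, and those of GDH1, ALD5 and ISU2 were -1.60, -0.96 and -1.28. In the ncs2∆elp6∆ background, where 24.3% of 5318 genes were called, 9 genes of the list fell on deletion of HEL2 and none rose. LEU1 changed by -2.89, OAC1 by -3.14, BAT1 by -2.03 and GDH1 by -1.58 in that background. LEU4 fell there as well, by -0.96 on the log2 scale. The triple deletion also carries the LEU2 marker, and its part in these changes was not tested.

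**Figure D2:**
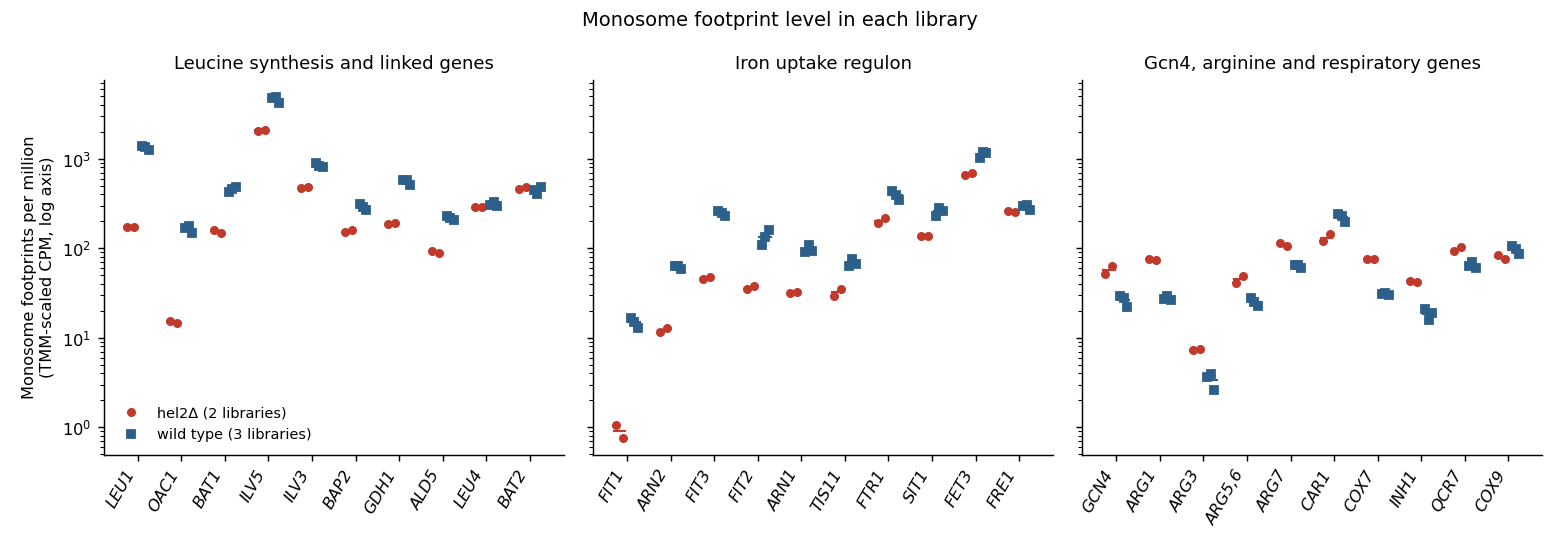
Monosome footprint level (TMM-scaled CPM, log axis) in each hel2∆ library (circles, left) and wild-type library (squares, right) for 3 sets of genes, with the group mean as a bar. The leucine genes LEU1 and OAC1 and the iron genes FIT1, ARN2 and FIT3 are several-fold lower in both hel2∆ libraries, while LEU4, BAT2 and FRE1 lie close to the wild type and ARG1, COX7 and INH1 are higher.

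The iron regulon was low in hel2∆ monosomes. Aft1 and Aft2 are the transcription factors that turn on iron uptake genes when iron is scarce, including the siderophore transporters of the Arn family, the cell-wall mannoproteins Fit1 to Fit3 that retain siderophores, and the Fet3 and Ftr1 pair that oxidizes and imports iron. Of 32 genes of the list tested, 20 were lower and none was higher, at a median log2 change of -0.71. Both hel2∆ libraries lay below all 3 wild-type libraries at 26 of the 32, beside 1504 of all 5225 genes tested. Summed over the list, the genes took 0.255% and 0.261% of the hel2∆ counts, against 0.362%, 0.385% and 0.375% of the wild-type counts.

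The cell-wall and siderophore genes changed most. FIT3 (YOR383C, chromosome XV, 1060441 to 1061055) had 45.6 and 47.3 CPM in hel2∆, against 259, 245 and 231 CPM in the wild type (log2 change -2.39, SE 0.0950, adjusted p = 1.15e-11). Its neighbour FIT2 (YOR382W) had 34.8 and 38.1 CPM in hel2∆, against 109, 133 and 159.7 CPM in the wild type (log2 change -1.87, SE 0.183), and the next gene, the ferric reductase FRE5 (YOR384W), changed by -2.54 with 2 and 3 counts in hel2∆. All hel2∆ values of these adjacent genes were below the lowest wild-type value. FIT1, on another chromosome, had 3 and 3 counts in hel2∆ and 196, 161 and 171 in the wild type (log2 change -4.05, adjusted p = 3.94e-07). ARN2 had 11.6 and 12.8 CPM in hel2∆ and 62.9, 63.4 and 58.8 CPM in the wild type (log2 change -2.33, SE 0.141), and ARN1 had 31.9 and 32.2 CPM in hel2∆ and 91.8, 108 and 92.9 CPM in the wild type (log2 change -1.60, SE 0.118). No library of one strain reached the range of the other at these genes. LSO1, a small protein linked to iron limitation, had 0 and 1 counts in hel2∆ and 43, 32 and 25 in the wild type, a wild-type to hel2∆ ratio of 19.1 with an exact 95% counting interval of 3.34 to 760. Its call was lost without hel2∆ replicate 1 (adjusted p = 0.0522).

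Uptake genes with higher levels fell less. SIT1, a ferrioxamine transporter, had 137 and 138 CPM in hel2∆ and 230.2, 284 and 259 CPM in the wild type (log2 change -0.91). FTR1, the iron permease, had 189.9 and 217 CPM in hel2∆ and 432, 397 and 349 CPM in the wild type (log2 change -0.94), and FET3, the multicopper oxidase that works with it, had 650.1 and 699.8 CPM in hel2∆ and 1027, 1176 and 1166 CPM in the wild type (log2 change -0.73). At all 3 genes the libraries of the strains were separate. TIS11, also called CTH2, which promotes decay of mRNAs of iron-consuming proteins, changed by -1.07, the enterobactin transporter ENB1 by -0.63, the low-affinity transporter FET4 by -0.58, the palmitoyltransferase AKR1 by -0.59 and the vacuolar transporter SMF3 by -0.54. FRE1, the main cell-surface ferric reductase, changed by -0.17 and did not pass the test, nor did AFT1 (-0.33), AFT2 (0.07) or the scaffold ISU1 (-0.90). Without wild-type replicate 3, FRE1 (-0.25, adjusted p = 0.00179), AFT1 (-0.37, 0.0342) and ISU1 (-1.11, 2.86e-13) were called, and 24 of the list were lower. Without wild-type replicate 2 ISU1 was also called (-0.74, adjusted p = 0.0187).

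The iron genes were low in hel2∆ monosomes, whereas the disome comparison and the ncs2∆elp6∆ background gave other values. In disomes 1 of 27 iron genes was called, the scaffold ISU2 named above, and the list median was 0.07. FIT3 had 100.3 and 117 disome CPM in hel2∆ and 105 and 132 in the wild type, and ARN1 had 18.8 and 36.6 in hel2∆ and 11.9 and 12.6 in the wild type, neither of which passed the test. The difference between the disome and monosome changes was tested as an interaction, which called 260 of 4999 genes (5.2%), and 11 of 29 iron genes were among them, all with a disome change above the monosome change. It was 2.26 for FIT3 (adjusted p = 7.56e-06) and 2.87 for ARN1 (adjusted p = 0.000129). In the ncs2∆elp6∆ background, where 24.3% of all genes were called, 7 of 32 iron genes were higher on deletion of HEL2. The 1 lower was ISU2, and the list median was 0.15. FIT3 changed there by 0.14, not past the threshold, and SIT1, ARN1 and FRE1 were higher by 0.57, 0.56 and 0.72. The test of the difference between backgrounds called 283 of 5354 genes (5.29%), 15 of them in the iron list, each with a change more positive in the ncs2∆elp6∆ background. The disome wild-type libraries are replicates 1 and 2 only, and the methods describe taking both fractions after 1 digestion and gradient, without saying which numbered libraries share a culture.

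**Figure D3:**
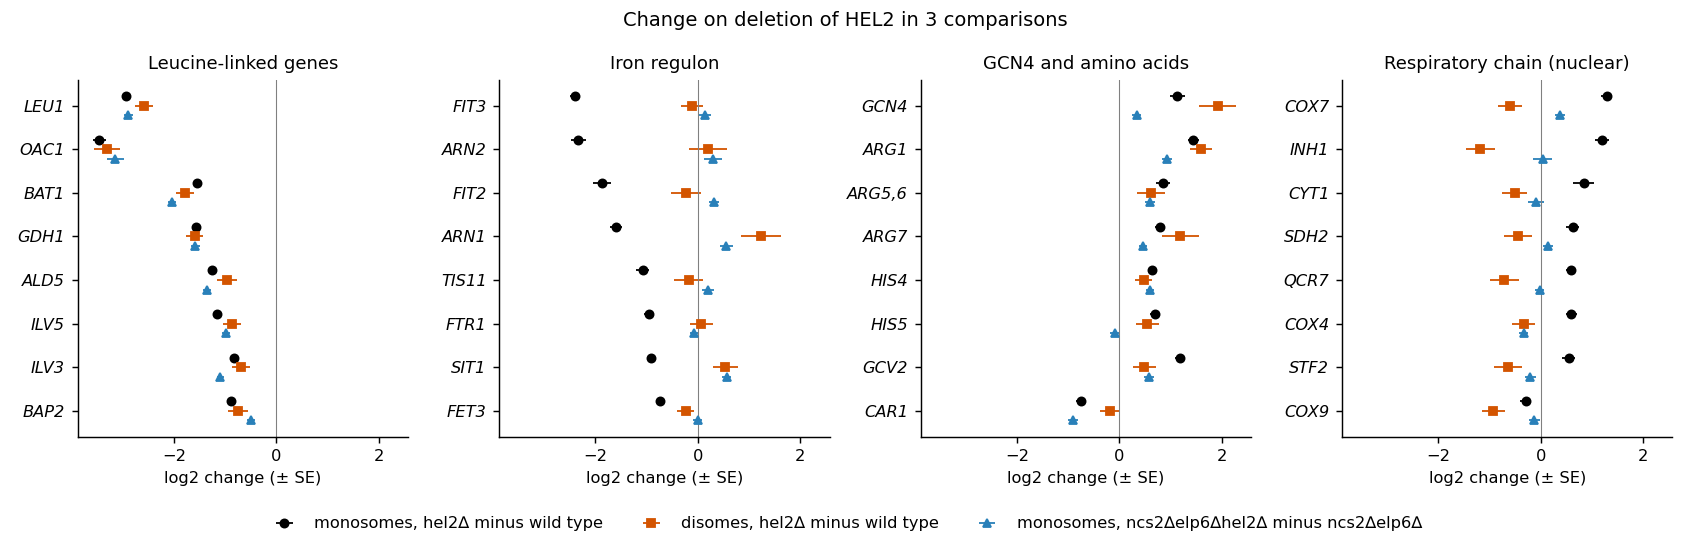
Log2 change on deletion of HEL2, with its standard error, for monosomes (hel2∆ minus wild type, circles), disomes (hel2∆ minus wild type, squares) and monosomes in the ncs2∆elp6∆ background (triangles), in 4 panels of 8 genes. The leucine-linked genes lie on the negative side in all 3 comparisons, while the iron genes are negative in the first and between -0.23 and 1.23 in the others, and the respiratory genes other than COX9 are positive in the first while all 8 are negative in disomes.

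Counts of mitochondrially encoded genes were low in both strains and lower in hel2∆. The 20 listed genes with a row of counts took 0.0026% and 0.0027% of hel2∆ counts, against 0.0186%, 0.0130% and 0.0061% of wild-type counts. Of these, 11 passed the filter. OLI1, subunit 9 of the ATP synthase, had 3 and 5 counts in hel2∆ and 375, 480 and 277 in the wild type, and COX2 had 5 and 7 in hel2∆ and 211, 190 and 105 in the wild type. OLI1, COX1, COX2, COX3 and ATP8 were called lower, while COB (-2.51), ATP6 (-2.98) and VAR1 (-1.17) were not. ATP8 had 1 and 2 counts in hel2∆, a wild-type to hel2∆ ratio of 8.38 with an exact 95% counting interval of 2.81 to 41.2. None of the 5 calls held with either hel2∆ library left out (adjusted p from 0.0522 to 0.217). Without wild-type replicate 3, whose counts were the lowest of the wild type, 8 of the 10 then tested were called, COB at -2.98, ATP6 at -3.34 and VAR1 at -1.56 among them, and without wild-type replicate 2 ATP6 was called at -2.59 (adjusted p = 0.0406). No gene of the list was called lower in the other 2 comparisons, which by itself does not show that they differ from this one. In the ncs2∆elp6∆ background 1 of 11 was higher on deletion of HEL2 and none was lower, with a median of 0.12. In disomes 4 were tested and none was called, with a median of 0.12. The test of the difference between backgrounds called 0 of 14 genes of the list. The disome-minus-monosome interaction called 1 of 11, with a disome change above the monosome change.

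Nuclear-encoded subunits of the respiratory chain and the ATP synthase moved upward in hel2∆ monosomes. Of 44 genes tested, 15 were higher and 1 lower, with a median log2 change of 0.24, and the group took 0.528% and 0.535% of hel2∆ counts, against 0.411%, 0.415% and 0.381% of wild-type counts. COX7, a small subunit of cytochrome c oxidase, had 75.1 and 76.2 CPM in hel2∆, against 31.0, 31.9 and 30.2 CPM in the wild type (log2 change 1.29, SE 0.104, adjusted p = 2.05e-07). INH1, the inhibitor of ATP hydrolysis by the ATP synthase, had 43.5 and 41.9 CPM in hel2∆, against 21.1, 15.7 and 18.8 CPM in the wild type (log2 change 1.2, SE 0.145). Both genes were among the largest rises, for which separate libraries were a condition. QCR7 and COX4, subunits of complexes III and IV, rose by 0.60 and 0.60. CYT1 (0.84) and SDH2 (0.62), subunits of complexes III and II, and STF2 (0.55), a stabilizer of the inhibited ATP synthase, were called in the full comparison, but CYT1 and STF2 lost the call without either hel2∆ library (adjusted p from 0.0718 to 0.129) and SDH2 without replicate 2 (0.0886). COX9 was the one fall (-0.29, adjusted p = 0.0391), and it held neither without either hel2∆ library (0.114 and 0.352) nor without wild-type replicate 1 or 2 (0.117 and 0.110).

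In the electron-transfer genes wild-type replicate 3 differed from the other wild-type libraries. CYC1, the main cytochrome c isoform, had 62.5 and 54.4 CPM in hel2∆ and 101, 109 and 23.0 CPM in the wild type, and NDE1, the external NADH dehydrogenase, had 177 and 192 CPM in hel2∆ and 149.9, 162 and 62.7 CPM in the wild type. Neither gene passed the test, whereas without wild-type replicate 3 CYC1 was called lower (-0.87, adjusted p = 1.66e-09), NDE1 higher (0.23, 0.00816) and the group had 16 calls higher and 6 lower. In disomes the respiratory genes had a median of -0.48 and 3 were called, all lower, among them INH1 (-1.17) and SDH4 (-1.07), a subunit of succinate dehydrogenase that changed by -0.13 in monosomes. The interaction of library type and genotype called 14 of the 44, each with a disome change below the monosome change, and was -1.90 for COX7 and -2.42 for INH1. In the ncs2∆elp6∆ background 3 of 45 were higher and 6 lower, beside 639 and 651 of all 5318 genes. Assembly factors and genes of mitochondrial gene expression had a median of 0.21 in hel2∆ monosomes, with 14 of 66 higher and 1 lower. CBP6, which activates translation of cytochrome b, was among the higher (0.80), though not without hel2∆ replicate 1 (adjusted p = 0.0795). Mitochondrial ribosomal proteins were split, with 6 of 76 higher and 7 lower and a median of 0.07.

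GCN4 and genes of arginine and histidine synthesis were higher in hel2∆ monosomes. GCN4 (YEL009C, chromosome V, 138918 to 139763), the activator of amino acid synthesis genes, had 51.6 and 63.9 CPM in hel2∆, against 29.4, 28.0 and 22.2 CPM in the wild type, and no library overlapped (log2 change 1.14, SE 0.141, adjusted p = 2.15e-05). In disomes it had 34.0 and 50.4 CPM in hel2∆ and 10.7 and 11.99 CPM in the wild type (log2 change 1.92, adjusted p = 0.00184). Of 14 genes of arginine biosynthesis and catabolism, 6 were higher and 2 lower, with a median of 0.43, and the group took 0.0915% and 0.0936% of hel2∆ counts, against 0.0757%, 0.0728% and 0.0730% of wild-type counts. ARG1, the argininosuccinate synthetase, had 76.2 and 74.6 CPM in hel2∆, against 27.1, 29.3 and 26.8 CPM in the wild type (log2 change 1.44, SE 0.108). ARG1 was among the largest rises, so its libraries were separate by selection, and it was also higher in disomes, by 1.59.

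Within the arginine group the genes called higher were synthetic and those called lower catabolic. The synthesis genes ARG5,6 (0.86), ARG7 (0.80) and ARG4 (0.54) rose. ARG3 (1.14) and ARG8 (0.89) were also called higher, though neither call held without either hel2∆ library (adjusted p from 0.0522 to 0.123). CPA1, whose translation is repressed by arginine through an upstream open reading frame, had 24.6 and 29.9 CPM in hel2∆ and 25.1, 27.3 and 29.7 CPM in the wild type, and ARG2 changed by 0.52, neither past the threshold (ARG2 adjusted p = 0.0561, and 0.0447 without wild-type replicate 3). CAR1, arginase, had 120.4 and 142.9 CPM in hel2∆ and 241, 228 and 195 CPM in the wild type (log2 change -0.74), and CAR2, ornithine transaminase, changed by -0.33 with the call lost without either hel2∆ library (adjusted p = 0.0691 and 0.101). In the ncs2∆elp6∆ background, where 24.3% of all genes were called, 5 were higher and 2 lower, with a median of 0.30. GCN4 rose there by 0.34.

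Of 6 histidine genes 4 rose and 1 fell, at a median of 0.46. HIS4, the trifunctional enzyme often used as a readout of Gcn4, had 821 and 817 CPM in hel2∆ and 548, 558 and 469.6 CPM in the wild type (log2 change 0.64). HIS5, HIS1 and HIS7 rose by 0.69, 0.50 and 0.42, while HIS6 fell (-0.69). In disomes none of the 6 was called (median -0.02), where 0.839% of all genes were called. In the ncs2∆elp6∆ background 2 were higher and none lower (median 0.05), where 24.3% of all genes were called. HIS3, which carries the his3Δ1 allele in both strains, was called lower (-0.26), and this call was lost without each of the hel2∆ libraries (adjusted p = 0.147 and 0.254) and without wild-type replicate 1 (0.0802) or 2 (0.0705). GCV2 and GCV1 of the glycine cleavage complex, chosen after their values were seen, rose by 1.19 and 0.94. Their list of threonine, serine, glycine and one-carbon genes had 3 of 20 higher and 5 lower (median -0.03). Aromatic synthesis had 6 of 15 higher and 2 lower (median 0.17), and lysine synthesis 1 of 10 higher and 1 lower. Sulfate assimilation with methionine and cysteine synthesis had 3 of 30 higher and 10 lower (median -0.20). HOM3, the first enzyme of threonine and methionine synthesis, and ARO1, the pentafunctional enzyme of aromatic synthesis, rose by 0.56 and 0.47 in monosomes and by 0.82 and 0.86 in disomes. With an offset for gene length the monosome change of ARO1 was 0.12 and no longer called (adjusted p = 0.233). Among Gcn4 and its regulators 4 of 15 were higher and 3 lower, and without wild-type replicate 3 there were 7 higher and 4 lower. GCN2, the eIF2 kinase, had 54.8 and 48.6 CPM in hel2∆ and 34.4, 26.8 and 32.7 CPM in the wild type (log2 change 0.71), and YIH1, which competes with Gcn2 for Gcn1, had 11.6 and 13.3 CPM in hel2∆ and 27.6, 24.6 and 22.7 CPM in the wild type (log2 change -0.99). GCN1, the partner of Gcn2 on collided ribosomes, changed by 0.18 in monosomes (adjusted p = 0.0607, and 0.0368 without wild-type replicate 3) and was called higher in disomes (0.77). It is a long gene, and with an offset for gene length its monosome change was -0.36 (adjusted p = 0.00149).

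Factors of collision sensing and RQC changed in both directions. Of 30 genes, HEL2 included, 5 were higher (16.7%) and 7 lower (23.3%), shares near those of all genes (14.7% and 17.2%), and the median was -0.09. With an offset for gene length 3 were higher and 13 lower. The helicase SLH1 had 66.3 and 64.2 CPM in hel2∆, against 40.2, 34.8 and 36.4 CPM in the wild type (log2 change 0.81, SE 0.110, adjusted p = 3.91e-05). SKI3, a scaffold of the complex that feeds mRNAs to the exosome, had 187 and 183 CPM in hel2∆ and 123, 123 and 128 CPM in the wild type (log2 change 0.57). MBF1, which prevents frameshifting on collided ribosomes, had 752 and 716 CPM in hel2∆ and 1205, 1111 and 1100 CPM in the wild type (log2 change -0.63). The libraries of the strains were separate at all 3 genes. SYH1, which has a role in mRNA decay after collisions, was lower (-0.47), though not without hel2∆ replicate 2 (adjusted p = 0.0584). DOM34 and HBS1, which recognize ribosomes stalled with an empty A site, changed by -0.10 and -0.01 and did not pass the test. Of the 12 called genes, 7 were called the same way on deletion of HEL2 in ncs2∆elp6∆, HEL2 itself included. In that background 6 of the 30 were higher and 3 lower, where 24.3% of 5318 genes were called. The share of all called genes that behaved so is not given here, so the 7 describe these genes only.

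The translation machinery was low relative to other genes. Of 134 cytosolic ribosomal protein genes, 75 were lower and 6 higher at a median of -0.25, beside 0.03 for all genes, and without wild-type replicate 3 there were 92 lower and 10 higher. Their summed share was nearly the same in both strains, 25.23% and 24.99% of hel2∆ counts against 25.7%, 26.1% and 24.7% of wild-type counts, so the low median is relative to the TMM scale, and with library totals it was -0.00. RPL14B had 342 and 352 CPM in hel2∆ and 914, 801 and 711 CPM in the wild type (log2 change -1.22, SE 0.0970), and RPS28A and RPL22A changed by -0.82 and -0.68. Most ribosomal protein genes occur as duplicated pairs whose uniquely mapped counts are uncertain. Ribosome biogenesis factors had 65 of 149 lower and 8 higher, with a median of -0.21 that became 0.03 with library totals. RRS1, needed for assembly of the large subunit, changed by -0.95, REI1, a late cytoplasmic maturation factor, by -0.78 and the snoRNP protein SNU13 by -0.73. The giant ATPase MDN1 went the other way, with 485 and 470.5 CPM in hel2∆ and 249, 232 and 209 CPM in the wild type (log2 change 1.05), and it was also called higher in disomes (0.89). With an offset for gene length 1 gene of the group was higher and 78 lower.

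Initiation factors, synthetases and the Hsp70, Hsp90 and chaperonin groups shared this direction. Of 29 initiation factors 17 were lower and 5 higher (median -0.26). HCR1, the j subunit of eIF3, had 369 and 368 CPM in hel2∆ and 772, 734 and 615 CPM in the wild type (log2 change -0.94), and CAF20, which binds eIF4E, changed by -0.68, whereas TIF2, one of the paired genes for eIF4A, and NIP1, an eIF3 core subunit, rose by 0.52 and 0.45. Elongation and termination factors were split, with 3 of 15 higher and 4 lower (median -0.02), and of these CAM1 changed by -0.88, YEF3, the fungal factor eEF3, by -0.51 and EFT1, one of the paired genes for eEF2, by 0.42. Of 23 cytosolic aminoacyl-tRNA synthetase genes 15 were lower and 2 higher (median -0.27), with GUS1 at -0.53 and THS1 at -0.49. Hsp70 and Hsp110 chaperones had 8 of 12 lower and none higher (median -0.33), Hsp90 and its co-chaperones 11 of 14 lower and none higher (median -0.37), and the CCT chaperonin with prefoldin 8 of 14 lower and none higher (median -0.27). With library totals the medians of the initiation, synthetase, Hsp70, Hsp90 and chaperonin lists were -0.01, -0.03, -0.08, -0.12 and -0.03. The median of all genes was then 0.27. Other chaperone groups did not all share the lower direction. Hsp104, small heat shock and Hsp40 proteins had 5 of 19 lower and 2 higher (median -0.24), ER folding genes 3 of 28 lower and 4 higher (median 0.03) and mitochondrial chaperones and proteases 4 of 22 lower and 2 higher (median -0.00).

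The ribosome-bound J-protein ZUO1 had 1168 and 1204 CPM in hel2∆, against 2307, 2402 and 2033 CPM in the wild type (log2 change -0.92, SE 0.0810, adjusted p = 4.08e-07). STI1, which bridges Hsp70 and Hsp90, had 1533 and 1517 CPM in hel2∆, against 2483, 2409 and 2383 CPM in the wild type (log2 change -0.67, SE 0.0690). Both hel2∆ libraries were below every wild-type library at these genes, and SSA2 (-0.61), SSE1 (-0.55), the co-chaperone CNS1 (-0.73) and the chaperonin subunit CCT6 (-0.67) fell as well. Proteasome genes had 19 of 45 lower and 4 higher (median -0.14, and 0.11 with library totals), with the lid subunit RPN6 at -0.57. RNA polymerase subunits had 16 of 35 lower and 4 higher (median -0.26, and -0.02 with library totals). Their share was 0.543% and 0.522% of hel2∆ counts, against 0.482%, 0.477% and 0.479% of wild-type counts. The small polymerase III subunit RPC37 changed by -0.76, and RPB2, a large catalytic subunit of polymerase II, rose by 0.55. In disomes 38 of 4531 genes were called (0.839%). No gene of the initiation, elongation, synthetase, chaperone, proteasome or polymerase lists was among them, apart from 1 called lower in the ER folding list. At so low a share few calls would be looked for in lists of this size.

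Carbon metabolism showed lower glycolysis and higher reserve carbohydrate genes. Of 36 genes of glycolysis and fermentation, 21 were lower and 4 higher at a median of -0.30, and their share was 14.9% and 15.1% of hel2∆ counts, against 16.96% to 17.07% of wild-type counts. ENO2, the main enolase, had 14670 and 14760 CPM in hel2∆ and 26700, 27240 and 24190 CPM in the wild type (log2 change -0.82). PGK1 (-0.72), the aldolase FBA1 (-0.73) and the glycerol-3-phosphate dehydrogenase GPD2 (-0.89) fell by similar amounts. The pentose phosphate pathway had 7 of 12 lower and none higher (median -0.47), with ZWF1, its first enzyme, at -0.64 and GND1 at -0.68. HXT1, the low-affinity glucose transporter, had 161 and 172 CPM in hel2∆ and 319, 318 and 308 CPM in the wild type (log2 change -0.92), and MTH1, which represses hexose transporter genes when glucose is low, rose by 1.09.

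Trehalose and glycogen genes had 7 of 19 higher and none lower, at a median of 0.52, and without wild-type replicate 3 there were 13 higher. GSY2, the main glycogen synthase, had 70.6 and 69.3 CPM in hel2∆ and 32.2, 25.6 and 39.6 CPM in the wild type (log2 change 1.1), and TPS2, the trehalose phosphatase, had 178 and 185 CPM in hel2∆ and 91.5, 79.6 and 106 CPM in the wild type (log2 change 0.97). Both hel2∆ libraries were above all wild-type libraries at these genes. Genes driven by the stress factors Msn2 and Msn4 had 8 of 30 higher and none lower (median 0.55), among them GAD1 (1.13), a glutamate decarboxylase, and the small heat shock protein gene HSP12 (0.91). Wild-type replicate 3 was the highest wild-type library for the Msn2/Msn4 share, at 0.173% against 0.150% and 0.128% in the other two, with 0.249% and 0.246% in hel2∆, and without it 15 were higher and 1 lower. In disomes the Msn2/Msn4 median was -0.32 and 2 genes were called, both lower. The trehalose and glycogen median was -0.22 there with no call, and the interaction of library type and genotype called 7 of 17 of those genes, all lower in the disome comparison.

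Genes for phosphate, sterols and amino acid uptake were low. The phosphate starvation regulon had 10 of 28 lower and 2 higher (median -0.46), and 13 of 27 lower and 4 higher without wild-type replicate 3. PHO84, the high-affinity phosphate transporter, had 709.5 and 781 CPM in hel2∆ and 1876, 2034 and 1366 CPM in the wild type (log2 change -1.24), SPL2, which controls the low-affinity uptake route, changed by -1.03, and GDE1, which breaks down glycerophosphocholine, rose by 0.60. Wild-type replicate 3 was the lowest wild-type library at PHO84, and the list took 0.380% and 0.382% of hel2∆ counts, against 0.582%, 0.615% and 0.458% of wild-type counts. Ergosterol and mevalonate genes had 13 of 28 lower and none higher (median -0.27). ERG3, a sterol desaturase, had 294 and 322 CPM in hel2∆ and 577, 628 and 539 CPM in the wild type (log2 change -0.91), and the sterol acyltransferase ARE1 and the regulator UPC2 changed by -1.12 and -0.79. Amino acid permeases had 12 of 19 lower and 1 higher (median -0.35), with the acidic amino acid permease DIP5 at -0.70 and the S-methylmethionine permease MMP1 at -0.81. With library totals the medians of the phosphate, sterol and permease lists were -0.21, -0.02 and -0.11, beside 0.27 for all genes.

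Genes of glycosylation, vacuolar sorting, autophagy, the cell cycle and mating had more calls higher than lower, while other secretory and vacuolar genes were split. Protein glycosylation and GPI anchoring had 15 of 62 higher and 2 lower (median 0.17). OCH1, which starts the outer mannose chain, had 63.2 and 66.5 CPM in hel2∆ and 22.1, 27.6 and 36.3 CPM in the wild type (log2 change 1.17), and MNN1 rose by 0.64. The SEC genes of the secretory pathway had 10 of 36 higher and 8 lower (median 0.02), with the exocyst subunits SEC5 and SEC10 among the higher (0.87 and 0.85). The vacuolar proton ATPase and vacuolar hydrolases had 4 of 24 higher and 6 lower (median -0.02). The VPS genes of vacuolar sorting had 11 of 40 higher and 2 lower (median 0.20), with the kinase VPS15 at 1.00, and the ATG genes of autophagy had 9 of 31 higher and none lower (median 0.26). Genes of DNA replication and cyclins had 11 of 46 higher and none lower (median 0.14), with the G1 cyclin CLN2 at 0.79. Coding lengths had a median of 1687.5 bp for the VPS and 1704 bp for the cell cycle genes, against 1266 bp for all genes. With an offset for gene length the VPS genes had 5 higher and 3 lower, the cell cycle genes 4 higher and 3 lower and the SEC genes 4 higher and 10 lower, while the ATG genes, with a median of 1254 bp, had 9 higher and none lower and the glycosylation genes 13 higher and 4 lower. Without wild-type replicate 3 the VPS genes had 12 higher and 7 lower and the glycosylation genes 21 higher and 5 lower.

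The mating-type a and pheromone response genes had 9 of 24 higher and none lower (median 0.29), with 15 higher without wild-type replicate 3, and the list took 0.264% and 0.263% of hel2∆ counts, against 0.158%, 0.168% and 0.1999% of wild-type counts. SST2, which desensitizes cells to pheromone, had 109 and 109 CPM in hel2∆ and 59.5, 63.5 and 69.6 CPM in the wild type (log2 change 0.76), and STE6, the exporter of a-factor, had 252 and 253 CPM in hel2∆ and 169.8, 169 and 162 CPM in the wild type (log2 change 0.60). STE18, the gamma subunit of the pheromone G protein, was called higher (0.88), though not without either hel2∆ library (adjusted p = 0.0561 and 0.0537). Of the 7 a-specific marker genes, which mark the MATa cells that both labels give, all were tested, 4 were higher in hel2∆ and none was lower.

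**Figure D4:**
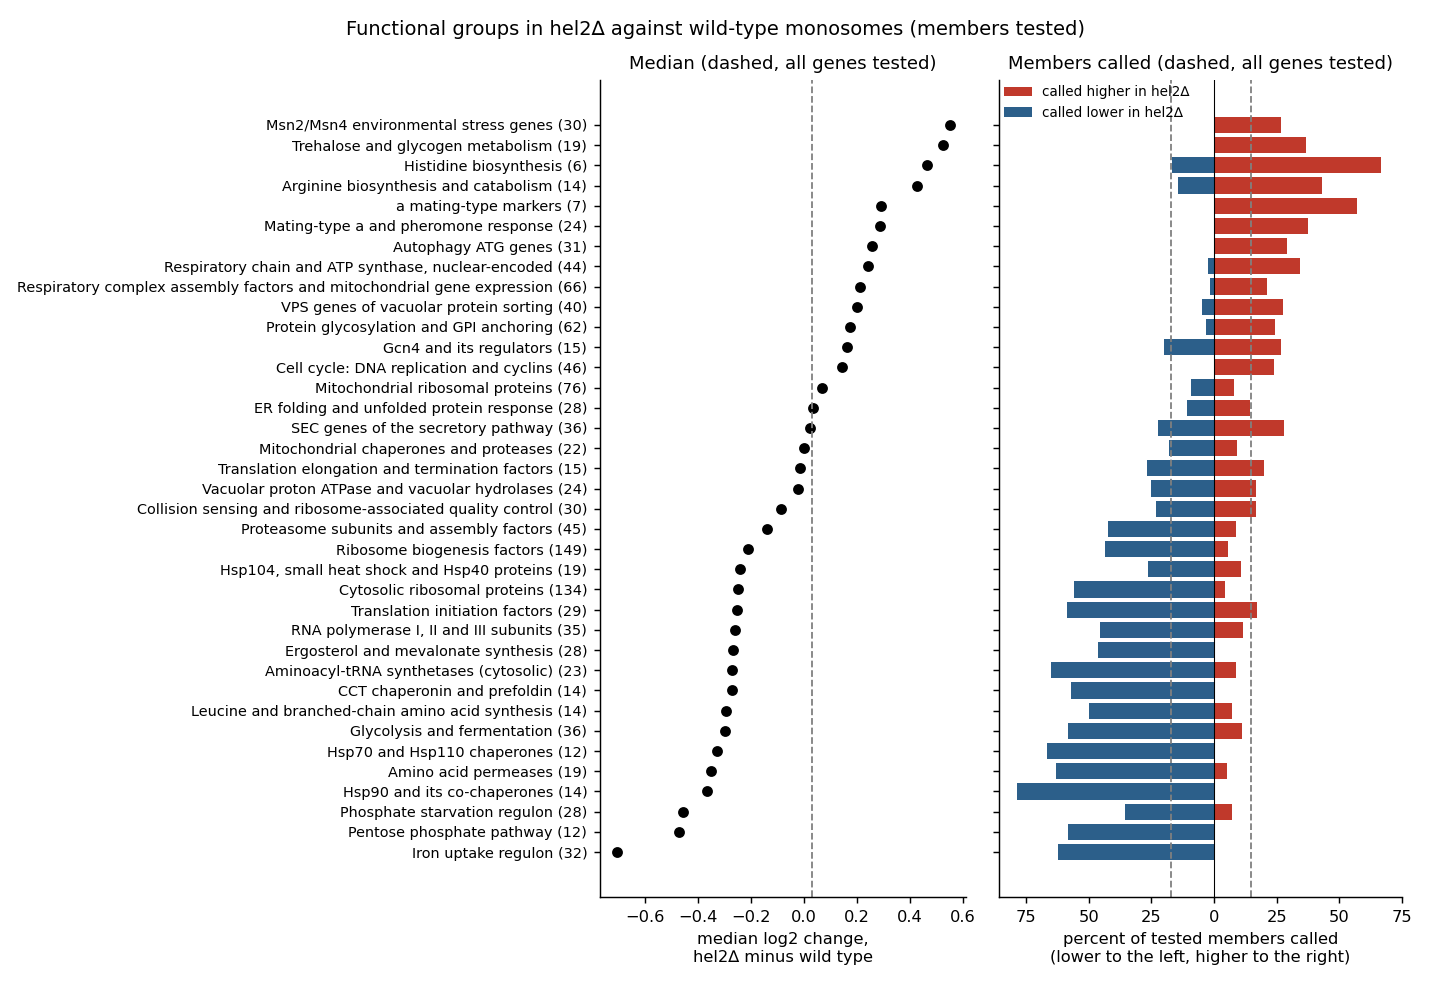
Functional groups ordered by the median log2 change of their tested genes (left panel, hel2∆ minus wild type) and the percent of tested genes called higher (right, red) or lower (left, blue) in hel2∆, with the number tested in brackets and dashed lines for all genes tested (median 0.03, 14.7% higher, 17.2% lower). The mitochondrially encoded genes (median -2.51) are not drawn. Of the groups drawn the iron regulon is lowest at -0.71, and the Msn2/Msn4 and the trehalose and glycogen groups are highest at 0.55 and 0.52.

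Gene length was related to the change across genes. Over 5202 genes with a coding length, the log2 change rose by 0.10 for each doubling of length. The slope was present in each hel2∆ library relative to the wild-type mean, at 0.102 and 0.104, while the wild-type libraries had slopes of -0.0075, -0.0081 and 0.0156. Among 826 genes of 2400 bp or more the median change was 0.24, with 36.7% called higher and 7.02% lower. Among 614 genes of 300 to 600 bp it was -0.14, with 6.35% called higher and 25.6% lower. Disomes of hel2∆ had a slope of 0.14 and the triple deletion against ncs2∆elp6∆ one of 0.0958. The triple-deletion monosome libraries were also shallow, with 2381991 and 4352295 counts against 24884873, 17782300 and 13791038 in ncs2∆elp6∆. The disome libraries held 1015861 and 2521397 counts in hel2∆ and 1701590 and 1693501 in the wild type. These are correlations across genes, which are not independent replicates, and the 2 deposited hel2∆ monosome libraries share their strain and low depth. The part of depth in the slopes was not tested. Thinning all libraries to equal depth left 1410 calls. With an offset that removes the trend, 1484 genes were called, 589 higher and 895 lower.

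**Figure D5:**
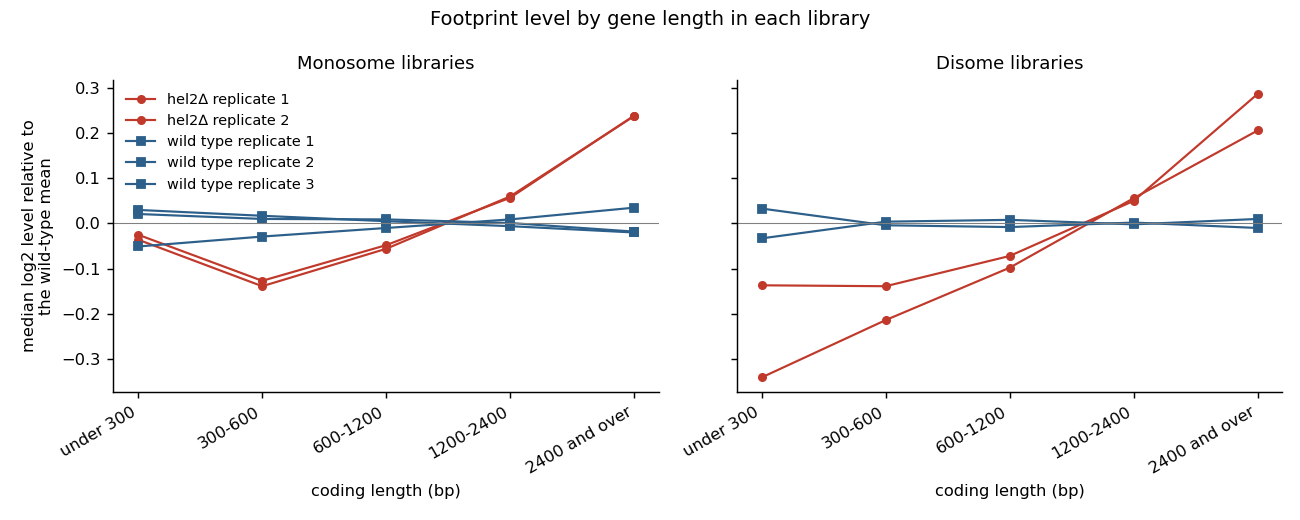
Median log2 level of genes in 5 classes of coding length, relative to the wild-type mean, in each monosome library (left panel) and disome library (right panel). Both hel2∆ libraries (circles) run from below 0 for genes of 300 to 600 bp to 0.24 in monosomes, and 0.29 and 0.21 in disomes, for genes of 2400 bp or more, while the wild-type libraries (squares) stay between -0.051 and 0.035.

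The trend differed in its bearing on the groups. With the length offset the iron list had 22 lower and none higher, the leucine list 8 lower and none higher, the nuclear respiratory list 23 higher and none lower and the arginine list 6 higher and 2 lower. Ribosomal protein genes had 13 higher and 58 lower. The respiratory genes, with a median coding length of 429 bp, moved against the direction of the 300 to 600 bp class (median -0.14). The iron genes had a median of 1623 bp. The class of 1200 to 2400 bp had 14.5% called higher and 14.3% lower, with a median change of 0.06. Without the offset the 8 higher ribosome biogenesis genes and the 4 higher RNA polymerase genes were among the long ones of their lists, and with it 1 of each group was higher.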

How the data were processed

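The deposited values are raw footprint counts for each gene, in separate tables for monosome and disome libraries. The authors had trimmed adapters and linker bases, discarded reads of noncoding RNA, mapped the remaining reads to open reading frames extended at both ends, and kept unique sense-strand matches with at most 1 mismatch. The submitters' processing notes name FastQC 0.11.7, STAR 2.5.3a, Bowtie 1.2.3 and the sacCer3 build. Removal of PCR duplicates was not stated, so counting intervals cover counting error only, and reads shared by near-identical genes were dropped. Depth per library stands in the report. Groups and replicate numbers came from the sample labels, which give no cultures, so p-values measure the spread between these libraries. Legends in the study call replicates of the strains biological.

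Comparisons used edgeR 4.0.16 and its quasi-likelihood F test (limma 3.58.1, R 4.3.3) with TMM factors, filterByExpr and robust dispersions, fitted to the 2 strains compared. The disome-minus-monosome change and the difference between the backgrounds were interaction terms of fits over all libraries involved. P-values were adjusted over all genes of a fit by the Benjamini-Hochberg method, and an adjusted p under 0.05 was a call. Gene symbols are those of the table, and coding length and positions are those of the RefSeq table of R64, the assembly behind sacCer3, where 5716 of 6085 identifiers were found. Simulated counts over the 5225 tested genes of the main comparison, with 200 genes changed, recovered 91% of 2-fold and 64% of 1.5-fold changes with 20 false calls. The false calls were a larger share of the simulated calls than the threshold of 0.05. The simulated counts were drawn without a length trend or a library that stood apart, unlike the data.

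Named genes are the markers of the genotypes, GCN4, the 12 largest called rises and falls with at least 30 counts in every library of the higher group and no overlap, and up to 6 called genes of each of 65 functional lists with those needed to say which did not pass. Of these, 1 gene is not reported here and was left out of its list. The genes, lists and alternatives were chosen with earlier results of these data known. Alternatives were DESeq2 1.42.0 and its size factors, library totals, no filter, a filter of 30 counts, thinning to equal depth, a length offset (loess, span 0.5), a block for the replicate number, all 10 monosome libraries in the fit, mitochondrial genes left out, a test beyond 1.5-fold and each library left out. Library totals, the disome length offset and the disome-minus-monosome comparison were added after seeing the data. Promoter motifs were planned and not run, since no promoter sequences were in use here.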

Additional observations from a re-analysis of the deposited data

Results flagged for a closer look

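The change on deletion of HEL2 differed between backgrounds, by the interaction test in monosomes (edgeR, adjusted p under 0.05), at 283 of 5354 genes, and 53 of them are named in the report. Values are log2 changes in the ncs2∆elp6∆ background (triple deletion minus ncs2∆elp6∆) minus those in the other (hel2∆ minus wild type). Leaving out single libraries gave 46 to 691 such genes.

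Among iron genes the difference was positive at LSO1 (4.42), FIT1 (4.32), FRE5 (3.45), ARN2 (2.63), FIT3 (2.54), FIT2 (2.19), ARN1 (2.17), SIT1 (1.48), TIS11 (1.28), ENB1 (1.04), FET4 (1.02), FRE1 (0.90), FTR1 (0.88), FET3 (0.74) and AKR1 (0.51). The marker LEU2 had 3.11, where both strains carrying hel2Δ::LEU2 had more counts than their counterparts.

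Positive differences among other genes were found at HXT1 (1.44), UPC2 (0.83), ARE1 (0.75) and ERG3 (0.66), at the collision factors SYH1 (0.73) and MBF1 (0.49), at the translation and chaperone genes RRS1 (0.72), HCR1 (0.58), ZUO1 (0.55), CAM1 (0.47) and STI1 (0.42), and at ENO2 (0.45), PGK1 (0.37) and BAP3 (0.41).

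The difference was negative at GCN4 (-0.79) and the amino acid and purine genes ARG1 (-0.50), CAR2 (-0.54), HIS5 (-0.77), GCV2 (-0.60), HOM3 (-0.40), ADE17 (-0.52), LEU4 (-0.85), BAT1 (-0.48) and ILV2 (-0.46). It was also negative at the respiratory genes INH1 (-1.16), COX4 (-0.92), COX7 (-0.90), STF2 (-0.74) and QCR7 (-0.61), at the reserve carbohydrate and stress genes GLC3 (-1.01), GAD1 (-0.99), GSY2 (-0.82) and TPS2 (-0.54), and at RPM2 (-1.14), STE18 (-0.81), IRA2 (-0.65) and CLN2 (-0.57). No cause of these differences was tested.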

How the results depend on the processing

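The count of called genes in the main comparison (1666) stayed within 1.5 times under DESeq2 size factors, the DESeq2 test, no filter, the 30-count filter, thinning, the length offset, all 10 libraries and library totals. By direction, the DESeq2 test called 502 genes higher, and library totals 1937 higher and 337 lower. Beyond 1.5-fold, 63 genes were called, 27 higher and 36 lower. Leaving out single libraries gave 632 to 2199 calls, 256 to 1022 higher and 376 to 1177 lower, the lowest without a hel2∆ library. With a replicate block there were 2320 calls, 1151 of them higher. Deviations of the same-numbered hel2∆ and wild-type libraries correlated at -0.0034 and -0.040. The 2 hel2∆ deviations mirror each other, and that pair spread little beyond counting (chi-square per degree of freedom 1.35). The correlations therefore cannot tell whether the numbers pair the libraries. Wild-type replicate 3 is alone in its block. The disome comparison called 38 genes, 67 with no filter, 95 with the replicate block and 9 to 122 with a library left out. Single libraries left out gave 647 to 1314 calls for the triple deletion (1290), 46 to 691 for the difference between backgrounds (283) and 28 to 468 for the disome-minus-monosome change (260). The length slope (0.10) was 0.119 with the 30-count filter and 0.093 to 0.116 with a library left out. GCN1 changed sign with the length offset (-0.36, and -0.39 with the replicate block as well), and with library totals the medians of the collision and RQC list (0.16), ribosome biogenesis (0.033), the proteasome (0.11), vacuolar ATPase and hydrolases (0.222), elongation factors (0.229), Hsp104 and Hsp40 proteins (0.005) and mitochondrial chaperones (0.243) became positive. Medians close to 0 changed sign more easily. That of the SEC genes was -0.054 with the length offset, -0.039 with the replicate block as well and -0.001 to 0.035 with a library left out, that of ER folding was -0.016 with the length offset and -0.003 to 0.056 with a library left out, and that of the vacuolar list was -0.080 to 0.026 with a library left out. Over 154 named genes, 2387 of 2603 values kept direction and side of the threshold, 155 lost the call and 59 gained one. The cause of these shifts was not tested. Depth of the hel2∆ libraries limits genes with few counts, and 1 strain per genotype limits all of them.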
